A study of Rattus norvegicus with 10 samples.

Results

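Magnocellular neurons of the hypothalamus make vasopressin or oxytocin and, beside them, smaller amounts of other messengers. The 10 genes described here encode such messengers: the peptide precursors Pdyn, Penk, Gal, Apln, Trh, Crh, Cck, Cartpt and Vip, and Nos1, the enzyme that makes nitric oxide in neurons. They were chosen by name and matched to the gene names of the deposited table, where each of the 10 stood once among 32623 genes. All 10 passed the filter on low values, a mean of at least 10 normalized counts, and were among the 15597 genes tested.

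RNA had been sequenced from 10 punches of the supraoptic nucleus, which came from male Sprague-Dawley rats. Adeno-associated virus had carried a short hairpin RNA, one against Opn3, the gene of the light-sensitive receptor opsin 3, into one nucleus, and a non-targeting one into the opposite nucleus. Tissue was taken 2 weeks later with a 1 mm punch from 100 µm sections, and each nucleus was extracted on its own. There were 5 punches per group, called shControl and shOpn3 after the hairpin, with replicate numbers 1 to 5 in both groups. Both groups therefore carry virus and a hairpin, and an uninjected nucleus was not analysed here. The labels name neither the age of the rats nor the promoter of the hairpin, so the cells that carried it are not given in the sources used here. A punch holds neurons, glia and vessels together, and may hold tissue beside the nucleus.

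A neuropeptide is cut from a longer precursor inside the secretory vesicle and released with the main hormone, from nerve endings in the posterior pituitary and from dendrites within the nucleus. Dynorphin, from Pdyn, is stored with vasopressin and restrains the firing of vasopressin neurons through kappa opioid receptors. Galanin and apelin are likewise known from vasopressin neurons, and cholecystokinin and corticotropin-releasing hormone from oxytocin neurons. Nitric oxide made by the product of Nos1 dampens the firing of both kinds of cell. Most of these genes are also active in other neurons near the nucleus.

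Promoter sequences are shown first for the 4 peptide genes that were lower in shOpn3 and for Vip, whose mean was higher, since cyclic AMP and neuronal activity act on many neuropeptide genes through the cAMP response element (CRE). RefSeq windows of assembly GRCr8, running from 250 bases before to 50 bases after the annotated start, were found by symbol for 7 of the 10 genes: Pdyn, Gal, Trh, Cartpt, Vip, Apln and Nos1. The build behind the deposited counts is not given in the sources used here. The 160 bases just before each start follow, 5′ to 3′ on the strand of the gene, with capitals on each match to the CRE core TGACG on either strand.
Pdyn, chr3:137366504-137366663 (-): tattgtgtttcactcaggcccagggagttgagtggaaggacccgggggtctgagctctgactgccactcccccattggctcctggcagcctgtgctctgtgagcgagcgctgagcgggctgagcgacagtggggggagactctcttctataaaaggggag
Gal, chr1:210084573-210084732 (-): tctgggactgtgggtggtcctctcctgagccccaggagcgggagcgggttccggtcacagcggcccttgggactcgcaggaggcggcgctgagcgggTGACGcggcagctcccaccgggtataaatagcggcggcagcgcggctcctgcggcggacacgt
Trh, chr4:126301763-126301922 (-): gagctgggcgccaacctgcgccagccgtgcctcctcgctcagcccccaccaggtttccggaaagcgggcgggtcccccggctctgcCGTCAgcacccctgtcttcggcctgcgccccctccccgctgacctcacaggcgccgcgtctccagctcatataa
Cartpt, chr2:32991236-32991395 (-): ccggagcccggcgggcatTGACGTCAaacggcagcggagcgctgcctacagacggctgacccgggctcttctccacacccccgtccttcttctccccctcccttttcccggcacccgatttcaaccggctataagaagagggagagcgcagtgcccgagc
Vip, chr1:44470320-44470479 (+): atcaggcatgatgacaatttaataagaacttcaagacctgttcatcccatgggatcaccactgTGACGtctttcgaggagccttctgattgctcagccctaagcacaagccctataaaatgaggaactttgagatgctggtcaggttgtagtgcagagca

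The full palindrome TGACGTCA stood in the Cartpt window, where its first base lies 142 bases before the start, and it counts as 2 overlapping matches to the core. Nos1 held the other full element, with its first base 9 bases before the start, and 4 matches to the core in all. Single core matches began 63 bases before the start in Gal, 74 in Trh and 97 in Vip, whereas the Pdyn and Apln windows held 0. Of 33469 promoter windows of 300 bases, 1.83% held the full element and 21.2% held the core. The sequence TATAAA on the strand of the gene was present in the windows of Pdyn (1 match), Gal (1 match) and Vip (3 matches), against 8.80% of all windows. The AP-1 sequence TGACTCA, searched on both strands, was found in that of Nos1 alone among the 7, against 4.63% of all windows. These are matches of letters, found in genes that were lower, higher or not called.

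The question behind the comparison was which co-expressed messengers differed between knock-down and control nuclei, and in which direction. With limma, 6 of the 10 genes passed the test, 4 lower in shOpn3 (Trh, Pdyn, Gal and Cartpt) and 2 higher (Cck and Crh). Calls were made at 0.05 after Benjamini-Hochberg adjustment across the 15597 genes. Over all 15597 genes, 18.8% were called, 8.48% lower and 10.4% higher. The median log2 difference of the 10 genes was -0.40, with -0.02 over all genes tested, and their median absolute difference was 1.01, with 0.19 over all genes. No overlap between groups was seen for 4 of the 10 (Trh, Gal and Cartpt lower, Cck higher), against 15.3% of all genes, 7.23% lower and 8.03% higher. In 7 of the 10 all 5 pairs of same-numbered samples differed in the same direction, against 39.4% of all genes. The genes were proposed with results for these samples in view, so these shares are a description. Blocking on the replicate number gave 9 calls among the 10, 6 lower and 3 higher, against 30.3% of all genes, 15.2% lower and 15.1% higher. On recovered reads, edgeR called 7 of the 10, the 6 above and Vip, against 19.4% of all genes (9.04% lower and 10.4% higher), and DESeq2 called the same 7 against 21.3% (9.89% lower and 11.4% higher).

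Opn3, the target of the hairpin, averaged 704 ± 277 normalized counts in the controls against 188 ± 59.7 after knock-down (SD, n = 5 each), and stood at 261 in shControl replicate 5, below the highest shOpn3 sample (290). Libraries held 33158341 to 39958578 reads. The labelled tissue carried its defining transcripts in every sample, with Avp between 4619 and 102261 and Oxt between 3810 and 56716 normalized counts. Of 9 magnocellular markers 6 were lower and 0 higher in shOpn3, and without Avp and Oxt their summed counts ranged from 11888 to 25747 in shControl and from 9806 to 17412 in shOpn3. Of 8 microglial markers 7 were higher, with sums of 8425 to 12206 and 15666 to 31163, and of 8 oligodendrocyte markers 8 were lower, with sums of 731561 to 1244843 and 248955 to 470326. Of 6 astrocyte markers 3 were higher and 0 lower, with sums of 197337 to 247879 and 247517 to 376296, and of 9 pan-neuronal markers 1 was higher (Rbfox3) and 2 were lower (Uchl1 and Elavl4), with sums of 139440 to 196693 and 136613 to 232663. In a bulk punch, fewer cells of a type and less RNA per cell cannot be told apart, and the part of tissue composition in the values below was not tested.

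**Figure D1:**
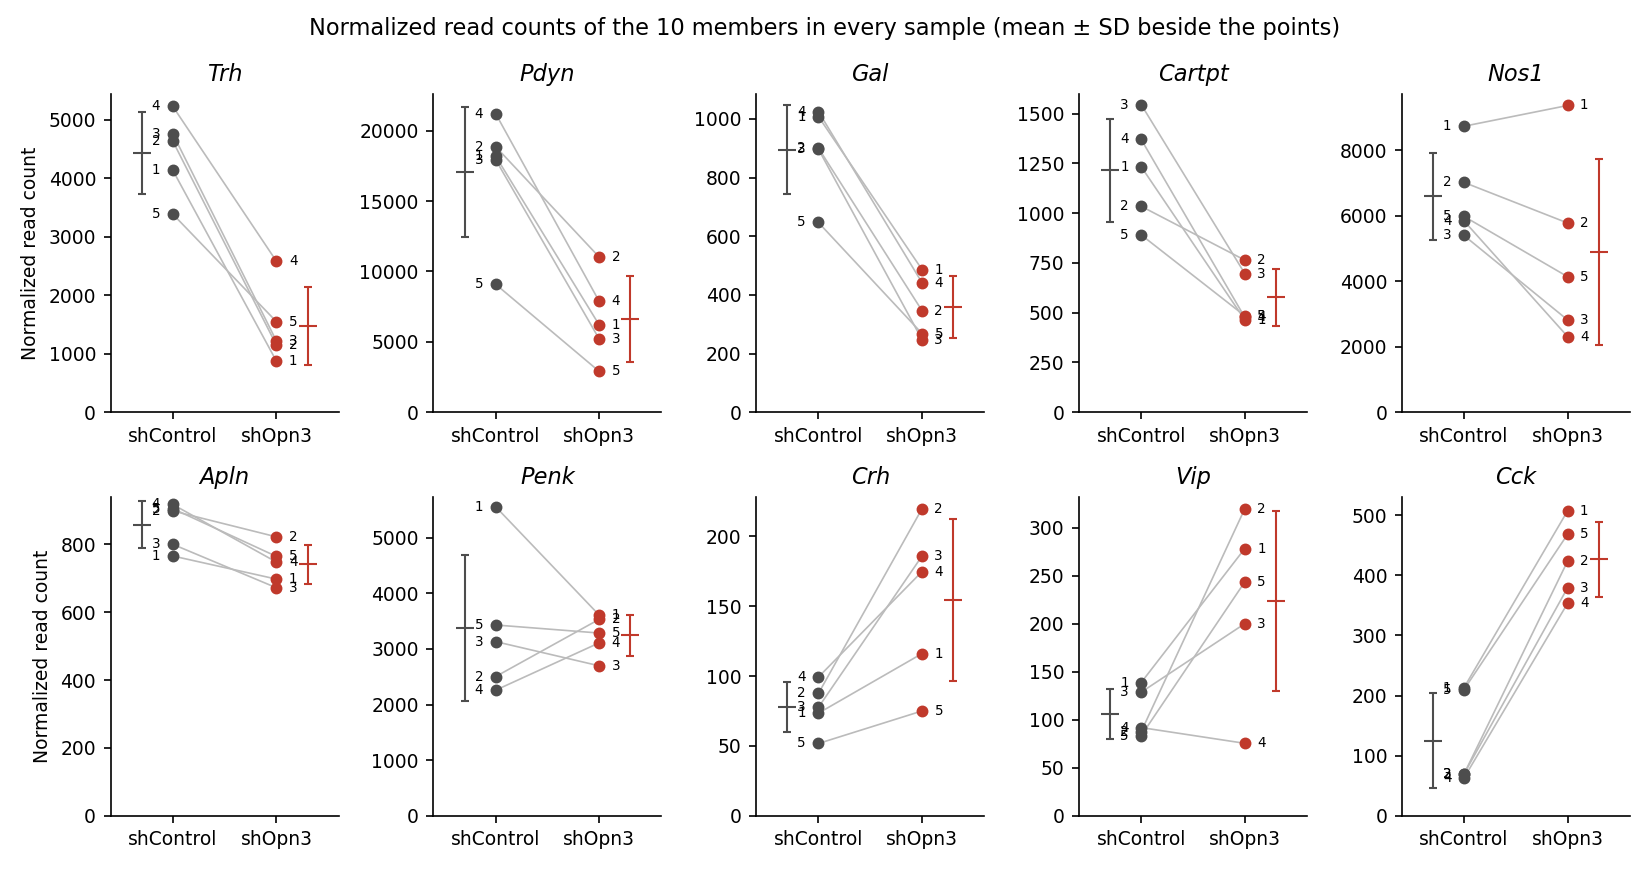
Normalized read counts of each of the 10 genes (vertical axes, each from 0) in the 5 shControl and 5 shOpn3 samples, with same-numbered samples joined by lines, replicate numbers beside the points and bars for the mean ± SD. All 5 lines fall for Trh, Pdyn, Gal, Cartpt and Apln and rise for Cck and Crh, while those of Penk cross.

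Of the opioid precursors, Pdyn fell and Penk did not pass the test. Pdyn (ENSRNOG00000026036) had 18198, 18874, 17951, 21223 and 9093 normalized counts in shControl replicates 1 to 5, and 6195, 11021, 5196, 7870 and 2894 in shOpn3 replicates 1 to 5. Every shOpn3 sample except replicate 2 lay below every control, and that sample exceeded only shControl replicate 5. The means were 17068 ± 4642 and 6635 ± 3042 (SD, n = 5 each), the latter 38.9% of the former (log2 difference -1.44, SE 0.319, limma adjusted p = 0.00802). Same-numbered samples kept 34.0%, 58.4%, 28.9%, 37.1% and 31.8% of the control, a fall in 5 of 5 pairs. The replicate 5 samples were the lowest of both groups, and the fall within that pair was close to that of the others.

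Penk encodes proenkephalin, the precursor of the enkephalins, and is also abundant in striatal and other forebrain neurons. Penk (ENSRNOG00000008943) had 5561, 2503, 3133, 2258 and 3432 normalized counts in shControl and 3609, 3535, 2697, 3111 and 3287 in shOpn3. The shOpn3 samples all lay inside the control range, and 2 pairs were higher and 3 lower. The log2 difference was 0.01 (SE 0.200, limma adjusted p = 0.977; exact permutation test, p = 0.968), and its sign changed with the fit, with values from -0.11 to 0.26 over the alternatives. The control samples spread more than the shOpn3 samples, with a coefficient of variation of 38.7% and 11.3%, and shControl replicate 1 was the highest of all.

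Of the peptides known from vasopressin neurons, galanin fell, and apelin did not pass the test between groups. Gal (ENSRNOG00000015156), whose peptide mostly inhibits neurons through its receptors, had 1008, 901, 897, 1025 and 647 normalized counts in shControl and 486, 346, 248, 441 and 268 in shOpn3. The highest shOpn3 sample lay below the lowest control. The means were 895 ± 151 and 358 ± 105 (SD, n = 5 each; log2 difference -1.35, SE 0.195, limma adjusted p = 0.000796), and pairs kept between 27.6% and 48.2% of the control.

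Apln (ENSRNOG00000003984) encodes apelin, which opposes vasopressin in water balance. It had 766, 898, 800, 918 and 905 normalized counts in shControl and 697, 822, 672, 748 and 764 in shOpn3. Each shOpn3 sample was below its same-numbered control, at 81.5% to 91.5% of it, although the groups overlapped. The spread was the smallest of the 10 genes, with a coefficient of variation of 8.10% and 7.94%. The log2 difference of -0.21 (SE 0.0866) did not pass the test between groups (limma adjusted p = 0.115; exact permutation test, unadjusted p = 0.0397), and it passed with the replicate number as a block (adjusted p = 0.0305). The authors' deposited table gave Apln an adjusted p of 0.0820.

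The releasing hormones Trh and Crh moved in opposite directions. Trh (ENSRNOG00000011824), the precursor of thyrotropin-releasing hormone, had 4138, 4636, 4762, 5231 and 3388 normalized counts in shControl and 872, 1146, 1217, 2582 and 1548 in shOpn3. No shOpn3 sample reached the lowest control, and replicate 4 stood highest in both groups. With means of 4431 ± 701 and 1473 ± 665 (SD, n = 5 each), Trh had the largest fall of the 10 genes (log2 difference -1.68, SE 0.236, limma adjusted p = 0.000714). Pairs kept 21.1%, 24.7%, 25.5%, 49.4% and 45.7% of the control, so the fall was deeper in replicates 1 to 3 than in replicates 4 and 5. The spread of the log2 values was 0.24 in shControl and 0.59 in shOpn3 (SD).

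Crh (ENSRNOG00000012703) encodes corticotropin-releasing hormone, which drives the pituitary stress response and is also made in the amygdala and in cortical interneurons. Its normalized counts were 73.4, 87.5, 77.6, 99.2 and 51.7 in shControl and 116, 220, 186, 175 and 75.0 in shOpn3. All shOpn3 samples except replicate 5 exceeded every control, and replicate 5 was the lowest of both groups. The means were 77.9 ± 17.7 and 154 ± 58.0 (SD, n = 5 each; log2 difference 0.91, SE 0.278, limma adjusted p = 0.0382), with a rise of 1.45-fold to 2.51-fold in 5 of 5 pairs. The call lay close to the threshold. It was lost when shControl replicate 1, 2, 3 or 5 or shOpn3 replicate 2, 3 or 4 was left out, with log2 differences from 0.76 to 0.96 and adjusted p from 0.0577 to 0.101, and it held with the replicate number as a block (adjusted p = 0.00343).

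Cck, Cartpt and Vip are peptide genes with wide expression in the forebrain. Cck (ENSRNOG00000019321) encodes cholecystokinin, a partner of oxytocin in magnocellular neurons and one of the most abundant peptides of the cortex. It had 213, 69.2, 69.4, 62.7 and 210 normalized counts in shControl and 508, 424, 379, 354 and 468 in shOpn3. Controls fell into a high pair, replicates 1 and 5, and 3 samples from 62.7 to 69.4, yet every shOpn3 sample was above all of them, and replicates 1 and 5 were also the highest of that group. The means were 125 ± 79.1 and 426 ± 63.0 (SD, n = 5 each; log2 difference 1.98, SE 0.346, limma adjusted p = 0.00217). Cck was thus the gene with the largest difference of the 10, and its pairs rose 2.38-fold, 6.12-fold, 5.47-fold, 5.64-fold and 2.23-fold.

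Markers of cortical neurons were higher alongside Cck and Crh. Of 6 listed, 5 were tested, 2 were higher and 0 lower, and their summed counts ranged from 1929 to 4293 in shControl and from 3494 to 7896 in shOpn3. Slc17a7, the vesicular glutamate transporter of cortical projection neurons, had 253, 56.0, 61.2, 229 and 380 normalized counts in shControl and 1046, 928, 1991, 556 and 1566 in shOpn3 (log2 difference 2.88, SE 0.528, limma adjusted p = 0.00285). Neurod6, a transcription factor of the same cells, had 14.3, 5.09, 9.18, 26.2 and 32.7 in shControl and 72.9, 73.3, 88.8, 28.0 and 55.5 in shOpn3 (log2 difference 1.97, limma adjusted p = 0.0103), while Tbr1 was not called (log2 difference 0.71). In Slc17a7 and Neurod6 the order of the controls was not that of Cck, which was lowest in replicate 4. Camk2a, a kinase of excitatory neurons, had 3922, 1792, 1540, 1750 and 3544 in shControl and 6491, 5010, 3586, 2745 and 4659 in shOpn3. Replicates 1 and 5 were the highest controls of Camk2a and Slc17a7, as of Cck, but not of Neurod6. In shOpn3, Cck, Slc17a7, Neurod6 and Camk2a were all lowest in replicate 4, and Camk2a, like Cck, was highest in replicate 1. Camk2a was not called (log2 difference 0.89, limma adjusted p = 0.0502) but passed with the block (adjusted p = 0.00327), which made 3 of 5, and in DESeq2 (0.84, adjusted p = 0.0207). It also passed without shControl replicate 1 (1.08, adjusted p = 0.0198), shControl replicate 5 (1.05, adjusted p = 0.0281) or shOpn3 replicate 4 (1.06, adjusted p = 0.0276). The part of such cells in the values of Cck, Crh and Vip was not tested.

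Cartpt (ENSRNOG00000017712) encodes the CART peptides, which act on feeding and on hormone release. Its normalized counts were 1233, 1034, 1545, 1370 and 890 in shControl and 463, 764, 696, 476 and 484 in shOpn3. The groups did not overlap, and the gap was narrow, from 764 to 890. The means were 1214 ± 260 and 577 ± 142 (SD, n = 5 each; log2 difference -1.08, SE 0.180, limma adjusted p = 0.00168). The pair of replicate 2 kept 73.9% of its control and the other pairs 34.8% to 54.3%.

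Vip (ENSRNOG00000018808) encodes vasoactive intestinal peptide, in the hypothalamus best known from the suprachiasmatic nucleus, the circadian clock. It had 139, 87.5, 129, 91.8 and 83.3 normalized counts in shControl and 278, 320, 200, 75.3 and 243 in shOpn3. Replicates 1, 2, 3 and 5 of shOpn3 exceeded every control, and replicate 4 was the lowest of all 10 samples. The log2 difference of 0.95 (SE 0.336) did not pass the test between groups (limma adjusted p = 0.0698; exact permutation test, p = 0.0556). It passed with the replicate number as a block (adjusted p = 0.0336), and without shOpn3 replicate 4 it was 1.30 (adjusted p = 0.00139). The authors' deposited table gave Vip a log2 fold change of 1.08 and an adjusted p of 0.00428. Of 7 suprachiasmatic markers 5 were tested and 1 was called, Rorb, a nuclear receptor (log2 difference 0.30, limma adjusted p = 0.0263), with summed counts of 610 to 778 and 775 to 912. The Rorb call was lost under pan-neuronal scaling (0.27, adjusted p = 0.450) and without shControl replicate 4 or 5 or shOpn3 replicate 3 or 4 (log2 differences 0.26 to 0.30, adjusted p 0.0530 to 0.0770). Rora, a related receptor, was not called (log2 difference 0.43, limma adjusted p = 0.0502) but passed with the block (adjusted p = 0.0450), which made 2 of 5, and in DESeq2 (0.43, adjusted p = 0.0188), and without shControl replicate 3, shOpn3 replicate 1 or shOpn3 replicate 2 (0.48 each, adjusted p 0.0409 to 0.0476). The other markers tested, Prok2, Grp and Lhx1, were not called (log2 differences 0.76, -0.12 and -0.43). Most of the summed counts came from Rorb (means 472 in shControl and 579 in shOpn3) and Rora (150 and 202). Six6, a developmental regulator of the suprachiasmatic nucleus, had 6.61 ± 2.14 and 1.58 ± 1.87 normalized counts (SD, n = 5 each), too few to be tested.

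Nos1 (ENSRNOG00000001130) had 8737, 7021, 5399, 5846 and 5983 normalized counts in shControl and 9371, 5781, 2819, 2311 and 4140 in shOpn3. Replicate 1 of shOpn3 was the highest of all 10 samples, and replicates 3, 4 and 5 lay below every control. The means were 6597 ± 1335 and 4884 ± 2845 (SD, n = 5 each), and the log2 difference of -0.60 (SE 0.314) did not pass the test between groups (limma adjusted p = 0.215). In the blocked fit the adjusted p was 0.0392, and without shOpn3 replicate 1 the log2 difference was -0.88 (adjusted p = 0.0246). The pairs ranged from 39.5% to 107% of the control. Its coefficient of variation was 20.2% in shControl and 58.3% in shOpn3, a difference in spread that was not tested.

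**Figure D2:**
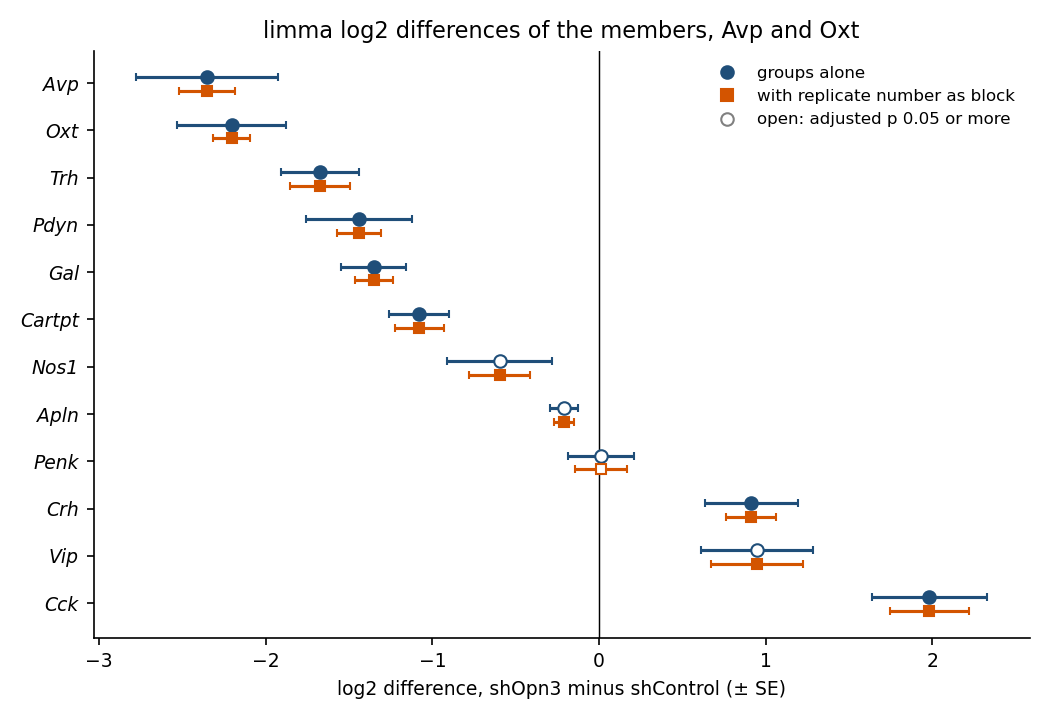
The horizontal axis gives the limma log2 difference (shOpn3 minus shControl, ± SE) of Avp, Oxt and the 10 genes, with circles for the groups alone and squares for the blocked fit, filled where the adjusted p is under 0.05. Estimates run from -2.35 for Avp to 1.98 for Cck, and Vip, Apln and Nos1 are filled only in the blocked fit.

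A further comparison asked whether these transcripts differed by as much as those of the hormones they accompany. Avp had changed by -2.35 and Oxt by -2.21 on the log2 scale (SE 0.426 and 0.328). For each gene the log2 value minus that of Avp, and minus that of Oxt, was taken within every sample and compared between groups by exact two-sided permutation tests, with p-values adjusted over the 20 comparisons. In 13 of the 20 the gene stood higher relative to the hormone in shOpn3, and in 0 lower. All 20 differences were above 0, and the ratios share the same Avp and Oxt values, so they are not independent of each other. Avp and Oxt both fell without overlap between groups, so a gene with no change of its own also stands higher relative to them. The count of 13 thus says nothing particular about these genes, and the share over all genes was not computed.

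Each difference is the change of the gene less that of the hormone, so their order repeats that of the single genes, and the 4 peptides that fell had the smallest. Trh relative to Avp differed by 0.68 between the groups (permutation adjusted p = 0.326) and relative to Oxt by 0.53 (adjusted p = 0.405), with overlapping groups in both cases. Pdyn relative to Avp differed by 0.91, with log2 ratios of -1.66 ± 0.54 in the controls and -0.74 ± 0.66 after knock-down (SD, n = 5 each; exact permutation adjusted p = 0.0595), and relative to Oxt by 0.77 (adjusted p = 0.185). Pdyn relative to Avp passed without shControl replicate 3 (1.05, adjusted p = 0.0496) and without shOpn3 replicate 1 (1.17, adjusted p = 0.0212). Gal relative to Avp was higher by 1.00 (exact permutation adjusted p = 0.0132, n = 5 each), and relative to Oxt by 0.85 (adjusted p = 0.0567). The latter passed without shControl replicate 3 (0.99, adjusted p = 0.0265), shControl replicate 4 (0.97, adjusted p = 0.0366) or shOpn3 replicate 1 (0.96, adjusted p = 0.0467). For Pdyn and Cartpt the ratios to Avp and to Oxt were higher in shOpn3 in 5 of 5 pairs, for which an exact sign-flip test gives p = 0.0625, the smallest it can give. A p above the threshold does not show that a peptide fell by as much as the hormone.

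For Cck, Crh, Vip, Penk, Apln and Nos1, all 12 comparisons passed (permutation adjusted p = 0.0132, and 0.0244 for Nos1 relative to Avp). The differences were largest for Cck, at 4.33 relative to Avp and 4.19 relative to Oxt. Penk, whose own counts did not pass the test, stood 2.36 higher relative to Avp and 2.22 higher relative to Oxt on the log2 scale, without overlap between groups. Nos1 relative to Oxt separated the groups although Nos1 alone did not, with a log2 ratio of -1.89 ± 0.46 in the controls and -0.28 ± 0.43 after knock-down (SD, n = 5 each). Cartpt relative to Avp and Oxt differed by 1.27 and 1.13 (permutation adjusted p = 0.0747 and 0.0595), which did not pass. Without shOpn3 replicate 1 they were 1.605 (adjusted p = 0.0298) and 1.42 (adjusted p = 0.0212), and the difference relative to Oxt also passed without shControl replicate 3 (1.35, adjusted p = 0.0423).

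**Figure D3:**
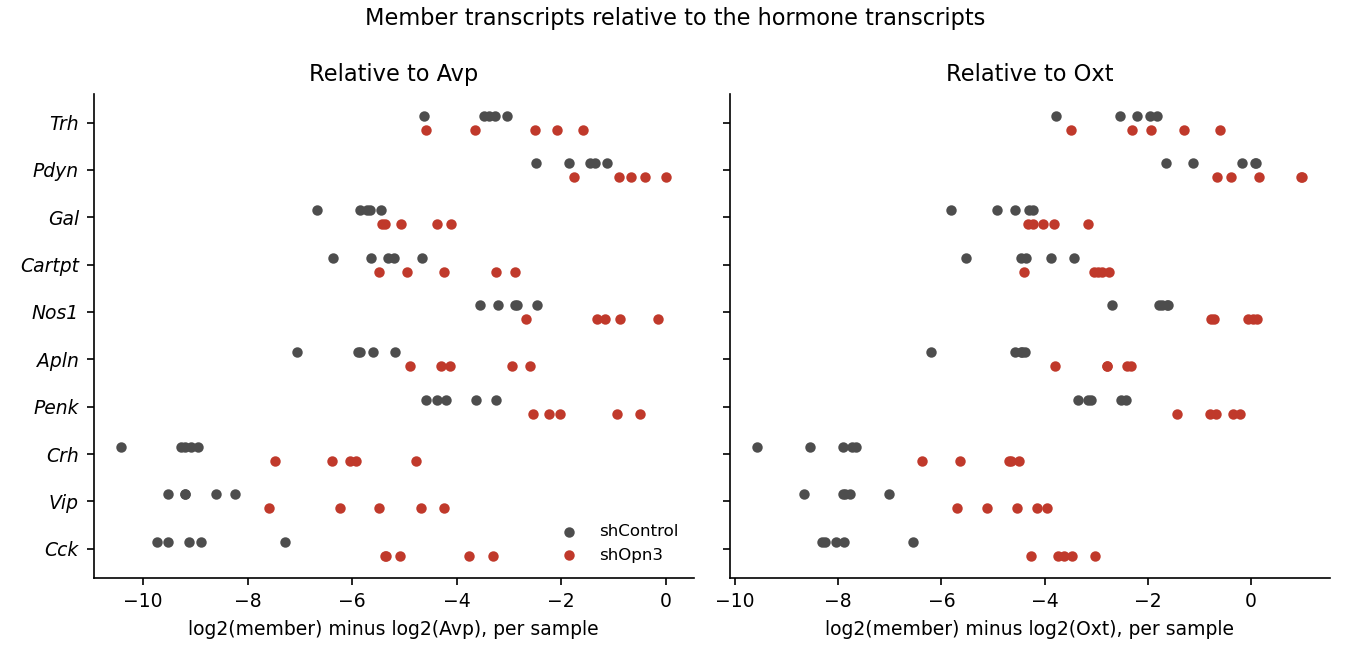
Each point is a sample, with the log2 value of a gene minus that of Avp (left) or Oxt (right) on the horizontal axis, grey for shControl and red for shOpn3. The groups separate for Cck, Crh, Vip, Penk and Apln in both panels and overlap for Trh, Pdyn and Cartpt.

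Receptors of these messengers were read from a list of 19 genes, of which 16 stood in the table and 14 were tested. In shOpn3, 1 was higher and 2 were lower, 3 of 14 against 18.8% of all genes, a share near that background. Oprk1, the kappa opioid receptor on which dynorphin acts, went from a mean of 886 ± 231 in shControl down to 452 ± 126 (SD, n = 5 each; log2 difference -0.97, SE 0.228, limma adjusted p = 0.0110), in 5 of 5 pairs. Gucy1a1, a subunit of the guanylate cyclase that nitric oxide activates, fell from 4493 ± 893 to 2857 ± 686 (SD, n = 5 each; log2 difference -0.66, SE 0.175, limma adjusted p = 0.0198). Its adjusted p was 0.0503 without shControl replicate 2 and 0.0504 without shOpn3 replicate 5. Crhr1, the main receptor of corticotropin-releasing hormone, rose from 76.5 ± 6.93 to 115 ± 14.8 (SD, n = 5 each; log2 difference 0.58, SE 0.138, limma adjusted p = 0.0116), without overlap between groups. The Crhr1 call was lost when samples were scaled to pan-neuronal transcripts (log2 difference 0.55, adjusted p = 0.148). The median log2 difference of the 14 was 0.13. Trhr, Galr1, Cckbr, Aplnr, Oprm1 and Gucy1a2 had log2 differences of 0.60, 0.26, 0.29, 0.31, 0.40 and 0.37, and were not called, although Aplnr passed without shOpn3 replicate 1 (0.41, adjusted p = 0.0390). Crhr2, Gucy1b1, Cckar, Adcyap1r1 and Vipr2 had -0.30, -0.28, -0.20, -0.17 and -0.0035, and limma did not call them either. Adcyap1r1 was lower in 5 of 5 pairs without overlap between groups, and DESeq2 called it (-0.17, adjusted p = 0.00987).

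Genes that process, bind or break down these messengers were read from a list of 14, of which 13 stood in the table and 12 were tested. The median log2 difference was -0.01, with 1 gene lower and 1 higher, 2 of 12 against the same 18.8%. Pcsk1, the prohormone convertase that makes the first cuts in many precursors, dropped to 1620 ± 452 from 3336 ± 1190 normalized counts (SD, n = 5 each; log2 difference -0.997, SE 0.280, limma adjusted p = 0.0265). Cpe, carboxypeptidase E, which trims the cut ends, rose from 65234 ± 4920 to 79383 ± 5195 (SD, n = 5 each; log2 difference 0.28, SE 0.0899, limma adjusted p = 0.0448). The Pcsk1 call was lost without shControl replicate 2, 3 or 4 or shOpn3 replicate 3 or 5 (adjusted p 0.0565 to 0.0665). The Cpe call was lost in 9 of the 10 fits that left out a sample, the exception being shControl replicate 4 (log2 differences 0.24 to 0.31, adjusted p 0.0549 to 0.111 in the 9), without a filter on low values (adjusted p = 0.0996) and under pan-neuronal scaling (0.26, adjusted p = 0.354). Pam, the enzyme that adds the amide end of many of these peptides, had a log2 difference of -0.52 and was not called by limma (adjusted p = 0.0926). It was called with the block (adjusted p = 0.00702), without shControl replicate 5 (-0.69, adjusted p = 0.0139), and by DESeq2 (-0.55, adjusted p = 0.0361). Pcsk2, Scg5 and Qpct were not called (log2 differences -0.17, -0.21 and 0.07).

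**Figure D4:**
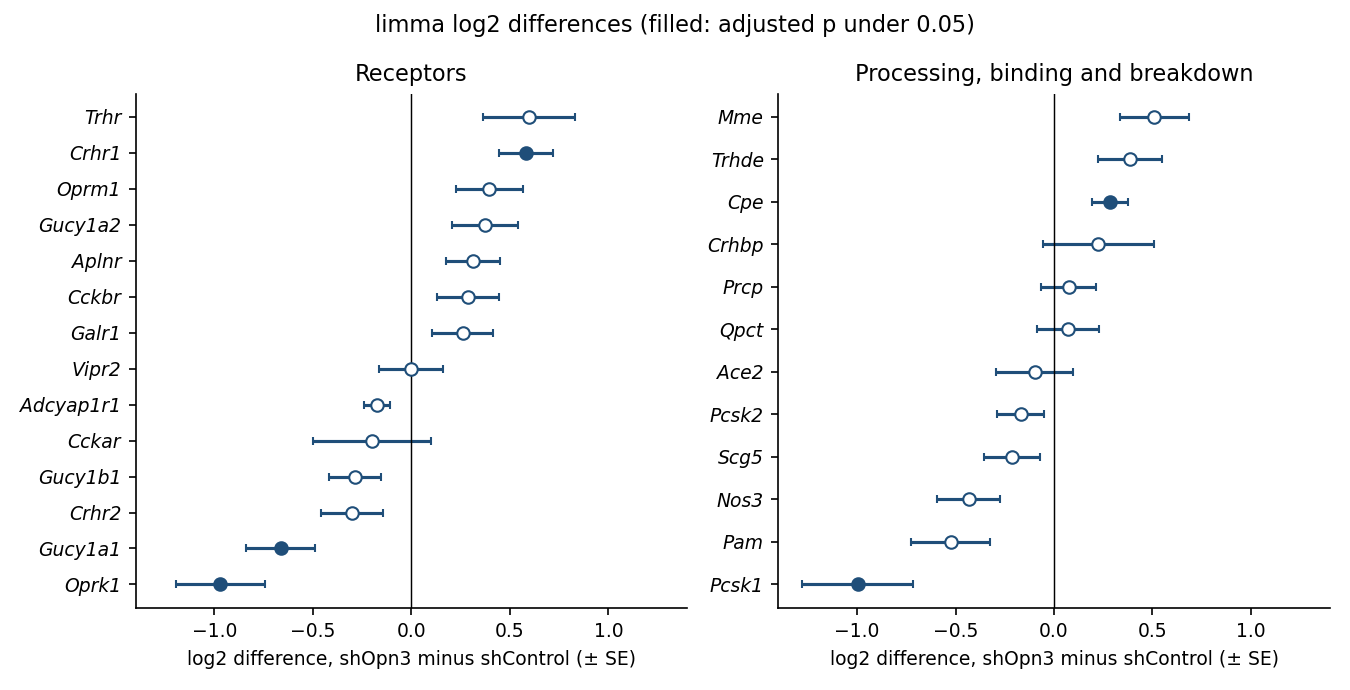
limma log2 differences (shOpn3 minus shControl, ± SE, horizontal axes) of the 14 receptor genes tested (left) and the 12 processing, binding and breakdown genes tested (right), ordered by value and filled where the adjusted p is under 0.05. Filled points are Crhr1, Gucy1a1 and Oprk1 on the left and Cpe and Pcsk1 on the right.

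Genes with the most similar profile were sought for the 3 members with the lowest adjusted p. The nearest had the smallest root-mean-square difference between log2 values centred on each gene's own mean over the 10 samples. Only tested genes with a unique symbol were searched, and those with provisional names, such as names starting with LOC or RGD, were left out. Nearest to Trh were Pmfbp1 (0.28) and Cbln1 (0.34), where the log2 values of Trh itself had a standard deviation of 0.98. Cbln1, a secreted organizer of synapses, had means of 2259 and 567 normalized counts (log2 difference -1.99, SE 0.201, limma adjusted p = 0.000168). Nearest to Gal were Myh15 (0.23), a myosin heavy chain, and Cngb1 (0.24), a subunit of a cyclic nucleotide-gated channel, against a standard deviation of 0.79 for Gal. Nearest to Cartpt were Sim1 (0.25), a transcription factor needed for the formation of magnocellular neurons, and Cd55 (0.26), a regulator of complement, against 0.65 for Cartpt. Sim1 had means of 2026 and 994 normalized counts (log2 difference -1.03, SE 0.196, limma adjusted p = 0.00344). The measure of similarity takes in the difference between groups, so a shared fall follows from the selection and is no separate result.

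Other neurons that could lie within or beside the punch were read from lists of markers in the same way. Among striatal markers, Drd1, a dopamine receptor, rose (limma log2 difference 0.97, SE 0.131, adjusted p = 0.000602), and Rgs9, a regulator of G-protein signalling, fell (log2 difference -0.61, SE 0.107, adjusted p = 0.00223). Of 5 peptides typical of other hypothalamic neurons (Sst, Tac1, Nts, Adcyap1 and Pnoc), limma called 0 and edgeR 0, and 2 had an unadjusted p under 0.05. Their sums ranged from 2552 to 4625 and from 2718 to 3528. Sst was called with the replicate number as a block (log2 difference 0.80, limma adjusted p = 0.00645). Of 5 tested genes of endothelium and blood, limma called 0 and edgeR 0, and 0 had an unadjusted p under 0.05. Slco1a4, a transporter of brain endothelium, was called with the block (log2 difference 0.17, adjusted p = 0.0442).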

How the data were processed

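The deposited table gave normalized counts, a signal per gene and sample that the authors had made by dividing read counts by 1 size factor per sample. It also held the authors' own comparison, per the file headers, as a log2 fold change with its standard error, its Wald score, and the raw and adjusted p-values. FastQC, STAR, featureCounts and DESeq2 are named in the submitters' processing notes. Their versions, the build and the use of strand are not given in the sources used here. Values were whole multiples of the smallest positive value within 0.001, so reads were recovered for 100% of them.

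Values were taken as log2(normalized count + 1), a scale that understates changes of low genes, and genes with a mean of at least 10 were tested with limma 3.58.1 (R 4.3.3; trend, group alone, two-sided, Benjamini-Hochberg over all genes). Single values were compared by exact permutation tests, where 252 splits allow no p below 0.00794. Alternatives were edgeR 4.0.16 and DESeq2 1.42.0 on recovered reads, limma-voom, other scalings, pseudocounts and filters, and leaving out each sample.

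Rats received both hairpins, in opposite nuclei, per the labels' protocols, but no label ties a number to a rat. After subtracting group means, same-numbered samples correlated over genes in 5 of 5 pairs (r from 0.12 to 0.44). For samples of unlike number r ran from -0.45 to 0.36, with a median of -0.21, so the pair of replicate 4 (0.12) lay within that range. After the subtraction the deviations of a group cancel out over its 5 samples. Positive r for equal numbers therefore brings negative r for unlike ones, and the median is no separate evidence of pairing. A fit with the number as a block was made too. No label says that samples of a group came from different rats, so p-values measure the spread between these samples. Members, lists and tests were chosen with earlier results of these data known. Named were all members, Opn3, Avp and Oxt, called genes of the receptor and processing lists (up to 5 each), up to 2 genes per marker list by adjusted p, and 2 nearest genes for 3 members. Other genes of the lists are given with their values as examples chosen after these were seen. Some genes of the marker lists are not reported here.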

Additional observations from a re-analysis of the deposited data

Results flagged for a closer look

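Of 28 group values examined (the 10 genes, Opn3, Avp, Oxt and the total reads, in 2 groups of 5 samples), 2 included a sample that lay far apart from the rest of its group, and about 1.4 would do so by chance. The lowest control value of Pdyn was 9093 normalized counts, in replicate 5, and the next was 17951, so that the gap made up 0.73 of the range. Opn3, Avp, Trh, Gal, Cartpt, Crh and Vip also had their lowest control value in that sample, whereas Cck (210) was among the highest there. The highest control value of Oxt was 56716, in replicate 1, and the next was 21354, a gap of 0.885 of the range. It enters every comparison relative to Oxt.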

How the results depend on the processing

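Trh, Pdyn, Gal, Cartpt and Cck kept their direction and their call in all 21 alternative fits, with log2 differences from -1.90 to -1.51, -1.87 to -1.17, -1.56 to -1.23, -1.19 to -0.99 and 1.77 to 2.51. Crh kept its direction and lost the call in 10 of 21, among them voom with quality weights (0.58, adjusted p = 0.110). Vip was called in 7, Apln in 3 and Nos1 in 3. The number of the 10 genes called ranged from 5 to 9. Penk, not called, was below 0 in edgeR (-0.0615), DESeq2 (-0.0564) and pan-neuronal scaling (-0.0145), and ranged from -0.11 to 0.21 when a sample was left out. Blocking on the replicate number, limma called 4726 of all genes and edgeR 4777, voom with quality weights called 5085 and pan-neuronal scaling 1283, against 2940 (1987 to 3056 leaving out a sample). Receptors called were 6 with voom with quality weights, against 3. Processing genes called were 1 without a filter, 1 with pan-neuronal scaling, 4 in edgeR with the block, 5 in DESeq2 and 6 with voom, against 2 (0 to 2 leaving out a sample). Exact sign-flip tests of the 5 pairs called 0 single genes, against 7 by permutation at unadjusted p (the 6 that limma called and Apln), and 0 comparisons relative to Avp or Oxt, against 13 (13 to 17 leaving out a sample). This design cannot go below 0.0625, so those counts say nothing about stability. The cause of these changes was not tested. Crh, Vip and Cck had few reads, at most 529 in a sample, which limits their precision.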
